A study of Sus scrofa with 2 samples.

Results

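Transcript levels of 10 genes of epithelial cell contacts and of the cell surface were described in the endometrium of pregnant Yorkshire pigs at day 18 (YK18). The genes were chosen by name, with earlier results of these data known. EPCAM and CDH1 stood for adhesion, and CLDN3, CLDN4, CLDN7, TJP1 and OCLN for the tight junction. KRT18 and KRT19 stood for keratins, and MUC1 for mucins. The transcript rows of the 10 genes were found by RefSeq accession, with the version number ignored, and the rows of a gene were summed. Of the 10 genes, 9 had a listed row, and these 9 genes took 17 of the 43699 rows of the table. MUC1, which encodes a membrane mucin of the apical surface, had no matched row and is given no value. The data were 2 RNA-seq libraries of the same group, YK18 replicates 1 and 2, with 1 library per pig. Both pigs were Yorkshire, pregnant by artificial insemination and untreated, and each sample was whole endometrium taken after the uterine horn had been flushed. The other days and the Meishan breed of the study were not analysed here, so there was no contrast of conditions.

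The epithelium that lines the uterus and its glands is held together by a belt of contacts near its apical side. Tight junctions, built from claudins and occludin on scaffolds such as TJP1, seal the space between cells, and adherens junctions, built on E-cadherin (CDH1), hold neighbouring cells to each other. Keratins 18 and 19 form the filaments of simple epithelia. In the pig the placenta does not invade, so the conceptus attaches to the luminal epithelium, which stays in place.

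Levels are given as RPKM, as the authors deposited them. RPKM is the reads of a transcript per kilobase of length and per 1000000 reads of the library. The length used for each transcript is not stated. The steps between low RPKM values gave library totals of 7466979 reads in replicate 1 and 7023108 in replicate 2. They also gave a smallest whole number of reads for each row. The true reads and length are whole multiples of these. Summed over all rows, the smallest reads made 90.2% of the total in replicate 1 and 90.3% in replicate 2. Since all rows together cannot exceed the total, multiples above 1 can hold only for rows with a small part of the reads. Which rows these are is not known. Intervals and p-values made from these reads cover counting error only, because there is 1 library per pig. They compare 2 libraries rather than conditions. A difference between pigs and a difference between samples or libraries cannot be told apart. Reads from PCR are not independent molecules, so even the counting error may be understated. In whole tissue, fewer epithelial cells and less RNA per epithelial cell cannot be told apart. A feature is a gene with its rows summed or a row without a matched gene, and 21224 of 38698 features were above 0 in both libraries.

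The adhesion genes had the highest levels of the set. EPCAM (NM_214419.1), the epithelial cell adhesion molecule, was at 5106 RPKM in replicate 1 against 5128 in replicate 2. The libraries were almost equal for this gene, with a mean of 5117 ± 15.6 RPKM (SD, n = 2). It stood at rank 94 in replicate 1 and at rank 92 in replicate 2 among the 38698 features. CDH1 (NM_001163060.1), the cadherin of the adherens junction, was at 4834 RPKM in replicate 1 against 3961 in replicate 2. Replicate 1 was thus the higher library, and the mean was 4398 ± 617 RPKM (SD, n = 2). EPCAM was 1.06 times CDH1 in replicate 1 and 1.29 times in replicate 2. Together they held 67.5% of the summed RPKM of the 9 genes in replicate 1 and 69.5% in replicate 2.

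The tight junction genes spanned the widest range of levels in the set. TJP1 (XM_003480423.2), the scaffold also known as ZO-1, was at 2519 RPKM in replicate 1 against 1807 in replicate 2. It was the highest of the 5, at percentile 98.8 in replicate 1 and 98.1 in replicate 2 among features above 0 in both libraries. CLDN3 (NM_001160075.1), a claudin of sealing type, was at 226.4 RPKM in replicate 1 against 386 in replicate 2. CLDN4 was at 136.8 RPKM in replicate 1 against 169.3 in replicate 2, all from its row XM_005661969.1, while its row NM_001161637.1 was listed at 0. CLDN7 was at 15.2 RPKM in replicate 1 against 36.9 in replicate 2, from NM_001160076.1, and its other 2 rows were listed at 0. These 3 claudins were higher in replicate 2 and TJP1 was higher in replicate 1. OCLN, which encodes occludin, was lowest at 4.56 RPKM in replicate 1 against 5.25 in replicate 2. Its 6 listed rows held 11 and 12 reads, and 3 of the rows were at 0 in both. TJP1 was 552 times OCLN in replicate 1 and 344 times in replicate 2.

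Both keratins were listed, and their levels were closer to each other in replicate 2 than in replicate 1. KRT18 (XM_005652579.1), the acidic keratin that pairs with keratin 8, was at 1626 RPKM in replicate 1 against 1064 in replicate 2. KRT19 (XM_003131437.2), the smallest keratin, was at 267.8 RPKM in replicate 1 against 522 in replicate 2. KRT18 was the higher gene in both pigs, by 6.07 times in replicate 1 and by 2.04 times in replicate 2. The summed keratin RPKM was 1894 in replicate 1 and 1586 in replicate 2, a mean of 1740 ± 217.4 (SD, n = 2). KRT8, the partner of keratin 18, has 1 row and is listed at 0 in both libraries. A value of 0 in this table cannot be read as absence.

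**Figure D1:**
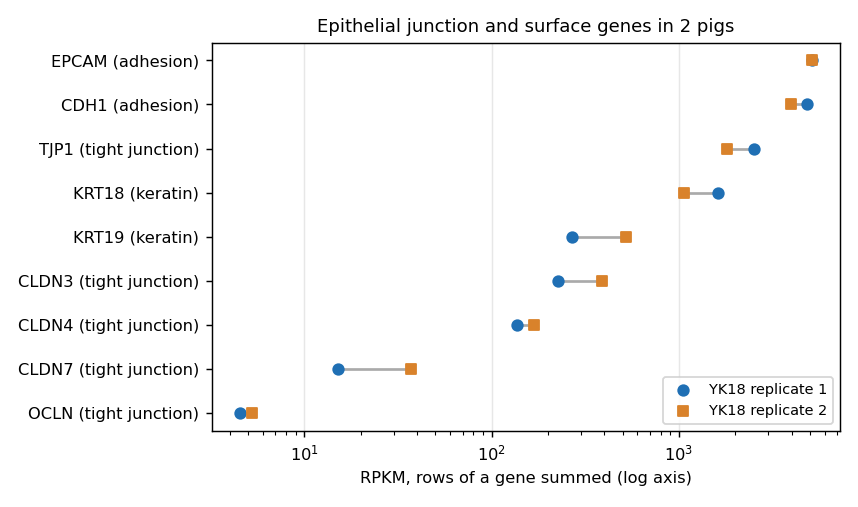
RPKM of the 9 listed genes on a log axis, with a circle for YK18 replicate 1, a square for YK18 replicate 2 and a line between them. The order from EPCAM down to OCLN is the same in both pigs, and the ranges of KRT19 and CLDN3 overlap.

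The order of the levels by RPKM was EPCAM, CDH1, TJP1, KRT18, KRT19, CLDN3, CLDN4, CLDN7 and OCLN in each library. Of the 8 pairs of neighbours, only KRT19 and CLDN3 overlapped in their ranges over the 2 pigs. The median of the 9 genes was 394.97 ± 179.8 RPKM (SD, n = 2), and their median percentile was 89.0. Both medians are the values of KRT19, the gene in the middle of the order. The lower places depended on the division by length. In smallest recovered reads the first 4 places were unchanged, CLDN4 with 907 and 1056 reads was above CLDN3 with 514 and 825 reads, and KRT19 was last. KRT19 had 6 and 11 reads at a smallest length of 3 nt, which is far shorter than a keratin transcript. Among 5472 mRNA rows whose mean was 100 RPKM or more, 11 had a smallest length under 10 nt, and the median was 175 nt. The place of KRT19 in reads is therefore not known, since its reads may be any multiple of these. The smallest lengths of the other member rows above 0 reached 888 nt, for CLDN4. They were 153 nt for EPCAM, 117 nt for CDH1, 176 nt for TJP1 and 177 nt for KRT18. These too are short for a whole mRNA, though the true lengths may be multiples of them. The order by RPKM may therefore not be the order per full transcript length.

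The number of listed rows moved with the level. The 6 genes with 1 row, EPCAM, CDH1, TJP1, KRT18, KRT19 and CLDN3, had means from 306 to 5117 RPKM. The 3 genes with several rows, CLDN4, CLDN7 and OCLN, had means from 4.90 to 153.1 RPKM and took the last 3 places. Over all matched genes, 21.1% of the 8238 genes with 1 row were listed at 0 in both libraries, against 40.4% of 1710 genes with 2 rows and 46.4% of 1123 genes with 3 or more. A mean of at least 100 RPKM was reached by 30.1% of genes with 1 row and 1.87% of genes with 3 or more. The part of the number of rows in the low values of OCLN and CLDN7 was not tested.

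**Figure D2:**
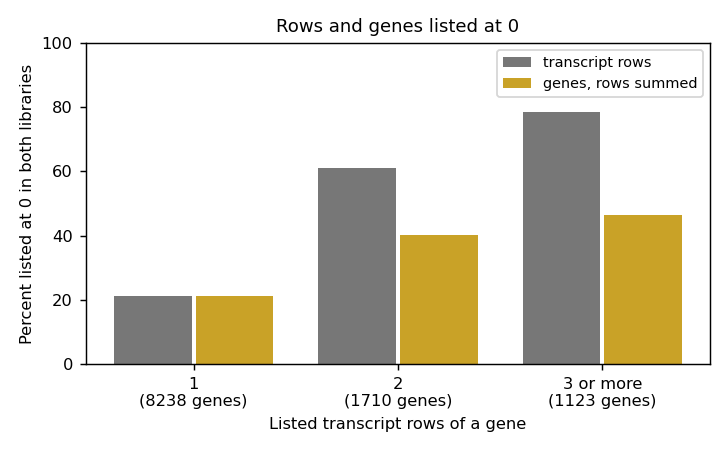
Percent of transcript rows (grey) and of genes with their rows summed (yellow) that are listed at 0 in both libraries, by the number of listed rows of a gene. Among genes with 3 or more rows, 78.4% of rows and 46.4% of genes are at 0, against 21.1% of both for genes with 1 row.

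Within the claudins, 20 genes had a listed row and 15 were above 0 in both libraries. Claudins are membrane proteins whose mixture sets how tight a seal is and which ions pass. CLDN8, which is not in the set of 10, was the highest, at 1338 RPKM in replicate 1 against 816 in replicate 2. CLDN3 and CLDN4 took places 2 and 3 in both pigs, ahead of CLDN1 at 102.3 and 134.1 RPKM and CLDN12 at 89.6 and 95.8 RPKM. CLDN7 was at place 7 in replicate 1 and place 6 in replicate 2, near CLDN5, the endothelial claudin, at 28.9 and 33.96 RPKM. CLDN3, CLDN4 and CLDN7 together held 19.2% of the summed claudin RPKM in replicate 1 and 34.3% in replicate 2, while CLDN8 held 67.97% and 47.2%. Among the 3 genes, CLDN3 took 59.8% of their RPKM in replicate 1 and 65.2% in replicate 2, CLDN4 took 36.1% and 28.6%, and CLDN7 took 4.01% and 6.23%. In smallest recovered reads CLDN4 took the largest share, 62.6% in replicate 1 and 54.3% in replicate 2.

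**Figure D3:**
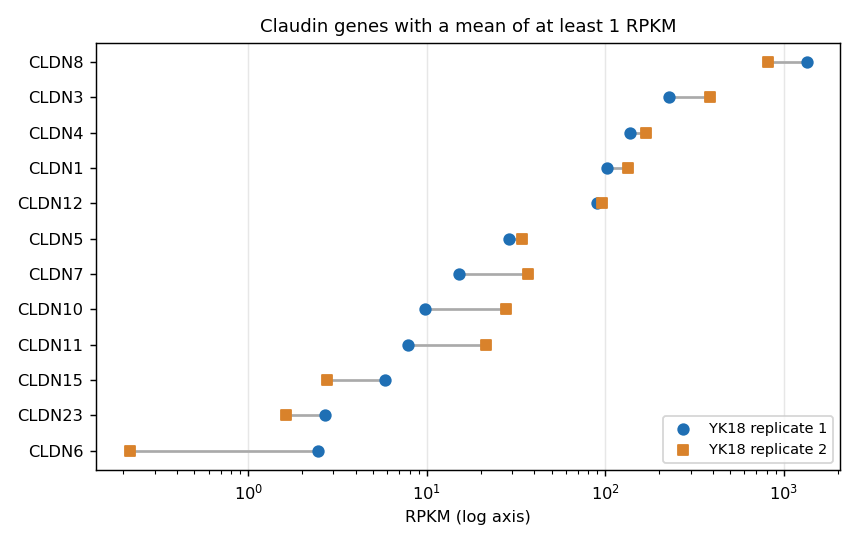
RPKM on a log axis for the claudin genes with a mean of at least 1 RPKM, with circles for YK18 replicate 1 and squares for YK18 replicate 2. CLDN8 leads in both pigs, and CLDN3, CLDN4 and CLDN7 are each higher in replicate 2.

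The libraries were then compared gene by gene, which asks how far 2 libraries from pigs of the same breed and day differed. On the log2(RPKM + 1) scale the median difference of replicate 2 minus replicate 1 was 0.17 over the 9 genes and 0.06 over all 19854 features with a mean of at least 1 RPKM, whose SD was 0.72. A difference of at least 2-fold on this scale was seen for 1 of the 9 genes, CLDN7 at 1.23, and for 12.9% of all features. In an exact binomial test on recovered reads, adjusted by the Benjamini-Hochberg method over 18958 features with at least 5 reads, 6 of the 9 genes passed 0.05, and so did 19.6% of all features. Genes with many reads pass more often. Among features with at least 100 reads 32.8% passed, and 6 of the 9 genes had as many reads, of which all but EPCAM passed.

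KRT18, TJP1 and CDH1 were lower in replicate 2, and 8.70% of all features passed in that direction. KRT18 was at 0.655 of its replicate 1 reads per 1000000 (95% exact interval 0.611 to 0.701), with an adjusted p of 9.02e-33 in the exact binomial test. TJP1 was at 0.717 (0.679 to 0.757), with an adjusted p of 1.78e-32 in the same exact test. CDH1 was at 0.819 (0.783 to 0.858), with an adjusted p of 4.85e-16 in the exact test. These 3 genes are among the 4 of highest level, and each fell by less than 2-fold.

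The 3 claudins were higher in replicate 2, and 10.9% of all features passed in that direction. CLDN3 was at 1.71 times its replicate 1 reads per 1000000 (95% exact interval 1.53 to 1.91), with an adjusted p of 2.60e-20 in the exact binomial test. CLDN4 was at 1.24 times (1.13 to 1.35), with an adjusted p of 3.47e-05 in the exact test. CLDN7 was at 2.43 times (1.54 to 3.94) from 28 and 64 reads, with an adjusted p of 0.000604 in the exact test. The claudins thus went the other way from TJP1, and from CLDN8, which was lower in replicate 2 (adjusted p = 1.09e-51, exact binomial test).

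EPCAM, KRT19 and OCLN did not pass the test. EPCAM had 5833 and 5510 reads and a ratio of 1.00 (95% exact interval 0.968 to 1.04). When replicate 2 was rescaled by the median ratio of features above 0 in both libraries, EPCAM passed as lower in replicate 2 (adjusted p = 0.0157, exact binomial test), and the features higher in replicate 2 went from 55.6% to 38.6% of all calls. OCLN had a ratio of 1.16 (0.469 to 2.90) at its smallest reads, and this interval would narrow if the true reads are a multiple of them. KRT19 had a ratio of 1.95 (0.661 to 6.42) at its smallest reads. With 4 times these reads, 24 and 44 at a length of 12 nt, the same ratio would have a p at or below the largest that passed, 0.00979 (exact binomial test, not adjusted).

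**Figure D4:**
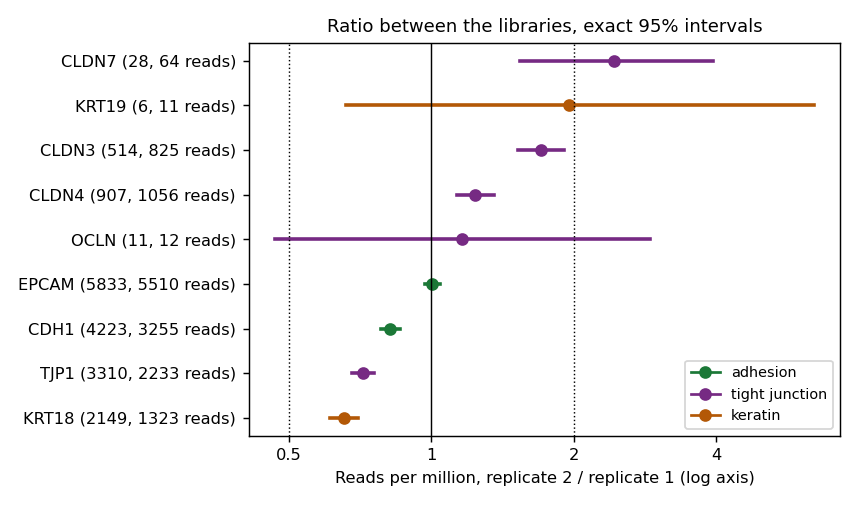
Ratio of reads per 1000000, replicate 2 over replicate 1, for the 9 genes on a log axis, with bars for the exact 95% interval, colours for the role and dotted lines at 0.5 and 2. KRT18, TJP1 and CDH1 lie below 1, CLDN4, CLDN3 and CLDN7 above it, and EPCAM on it, while the intervals of OCLN and KRT19 are wide.

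Other junction and surface genes were taken from 6 lists of 109 genes in all, of which 69 had a listed row and 44 had enough reads for the test. Of these, 9 were higher in replicate 2 and 8 were higher in replicate 1, which is 38.6% against the 19.6% of all features. With at least 100 reads, 15 of 27 passed, against 32.8% of such features. Their median log2(RPKM + 1) difference was 0.19, and 5 of 43 genes with a mean of at least 1 RPKM differed by at least 2-fold. Genes of a list and genes of the set thus moved in both directions. The counts by direction of each list below stand beside 10.9% of all features higher in replicate 2 and 8.70% higher in replicate 1.

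In the tight junction list 31 of 41 genes were listed, 20 were tested, 4 were higher in replicate 2 and 4 were higher in replicate 1. F11R, the junctional adhesion molecule JAM-A, was the most abundant, at 1961 RPKM in replicate 1 against 2235 in replicate 2, and rose in replicate 2 (adjusted p = 0.00377, exact binomial test). JAM3 was at 520 and 369 RPKM and SYMPK, a protein of RNA processing that is also found at junctions, at 559.8 and 468 RPKM, and both were lower in replicate 2. Among those with a mean of at least 5 RPKM the largest differences were those of CLDN10 and CLDN11. CLDN10 was at 9.80 and 27.8 RPKM without passing the test, and CLDN11 at 7.84 and 21.4 RPKM with an adjusted p of 0.00717 (exact binomial test). MARVELD2 encodes tricellulin, a relative of occludin at corners where cells meet. It was at 133.9 and 154.4 RPKM, far above OCLN, and was named after its value had been seen. MARVELD2 has 1 listed row and OCLN has 6, and the part of the number of rows in this contrast was not tested.

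In the adherens junction list 10 of 17 genes were listed and 5 were tested. CTNNA1, the alpha-catenin that links the cadherin complex to actin, was at 1972 RPKM in replicate 1 against 2095 in replicate 2 and did not pass the test. LIMA1, an actin binding protein, was at 165.6 and 138.4 RPKM and was the only one that passed, as lower in replicate 2 (adjusted p = 3.93e-05, exact binomial test). NECTIN2 was at 124.3 and 149.8 RPKM and VCL at 18.7 and 21.6 RPKM, and neither passed. The catenins that bind the tail of E-cadherin, CTNNB1, CTNND1 and JUP, are listed at 0 in both libraries, so the complex of CDH1 cannot be followed through them.

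In the list of desmosomes and hemidesmosomes 10 of 19 genes were listed and 9 were tested, of which 2 were higher in each pig. DSP, the desmosome plaque protein desmoplakin, was at 1292 RPKM in replicate 1 against 1161 in replicate 2, and was lower in replicate 2 (adjusted p = 8.34e-05, exact binomial test). LAMA3, a laminin chain of the basement membrane, was at 948 and 1653 RPKM and was higher in replicate 2 (adjusted p = 8.47e-41, exact binomial test). DST, a linker of keratin filaments at hemidesmosomes, was at 699 and 657 RPKM and DSG2, a desmosomal cadherin, at 391.5 and 364 RPKM, and neither passed. PKP2, a plaque protein, was at 60.7 and 42.2 RPKM and was lower in replicate 2 (adjusted p = 0.0131, exact binomial test).

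In the keratin list 5 of 11 genes were listed, none had 5 reads and none was tested. KRT20 was at 1.49 RPKM in replicate 1 and was listed at 0 in replicate 2, KRT23 was at 1.22 and 0.647 RPKM, and KRT10 was at 0.460 RPKM and listed at 0. KRT18 and KRT19 were therefore the only keratins of the set and the list with a mean of at least 1 RPKM. This statement covers only rows named by accession, and rows of other keratins may be among those left unnamed. KRT5 and KRT8 are listed at 0.

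In the list of mucins and surface glycoproteins 9 of 15 genes were listed and 8 were tested. Of these, 3 were higher in replicate 2 and none in replicate 1, against 10.9% and 8.70% of all features. MUC13, a membrane mucin, was at 141.3 RPKM in replicate 1 against 536 in replicate 2, a log2(RPKM + 1) difference of 1.92 (adjusted p = 1.68e-97, exact binomial test). It was the highest listed mucin, as MUC4 was at 8.64 and 12.9 RPKM and MUC20 was listed at 0. CDCP1, a surface glycoprotein, was at 276.1 and 328 RPKM and was higher in replicate 2 (adjusted p = 0.00132, exact binomial test). SPINT2, a surface protease inhibitor, was at 25.6 and 38.6 RPKM and did not pass.

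Markers of other cells also differed between the pigs, and their part in the differences above was not tested. COL3A1, a stromal collagen, was at 67098 RPKM in replicate 1 against 42857 in replicate 2. The 6 of 9 stromal genes with a row summed to 69904 and 45289 RPKM, and COL3A1 made most of both sums. Of 5 stromal genes tested, 2 were higher in each pig, so the sums do not describe the other stromal genes. The 6 of 7 listed leukocyte genes summed to 918 and 1377 RPKM, and CD79A was at 0. Of 5 leukocyte genes tested, 3 were higher in replicate 2, against 10.9% of all features. The 4 of 6 listed endothelial genes summed to 6408 and 6074 RPKM, with ENG at 0. HBB, a hemoglobin chain of erythrocytes, was at 3549 and 8431 RPKM. The 8 of 10 listed skeletal muscle genes summed to 487.8 and 22.8 RPKM. All 7 that were tested were higher in replicate 1, against 8.70% of all features. Of the trophectoderm list, IFNG, an interferon of the attaching pig conceptus, was at 682 and 89.1 RPKM, GATA2 was at 122.0 and 124.9 RPKM, and GATA3 and ELF5 were at 0. The list's 7 genes, 1 of them matched by a synonym, summed to 873 and 295 RPKM. The fall between these sums lay in IFNG, the only 1 of 4 tested genes that passed. The sums therefore do not describe the other genes of this list. Of smooth muscle, 4 of 5 genes were listed with sums of 115.4 and 104.99 RPKM, and ACTA2 and CNN1 were at 0. Of mesothelium, 2 of 4 genes were listed, with sums of 0.905 and 0.641 RPKM and UPK1B at 0. The sum of the 9 junction and keratin genes was 14735 RPKM in replicate 1 against 13080 in replicate 2.

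**Figure D5:**
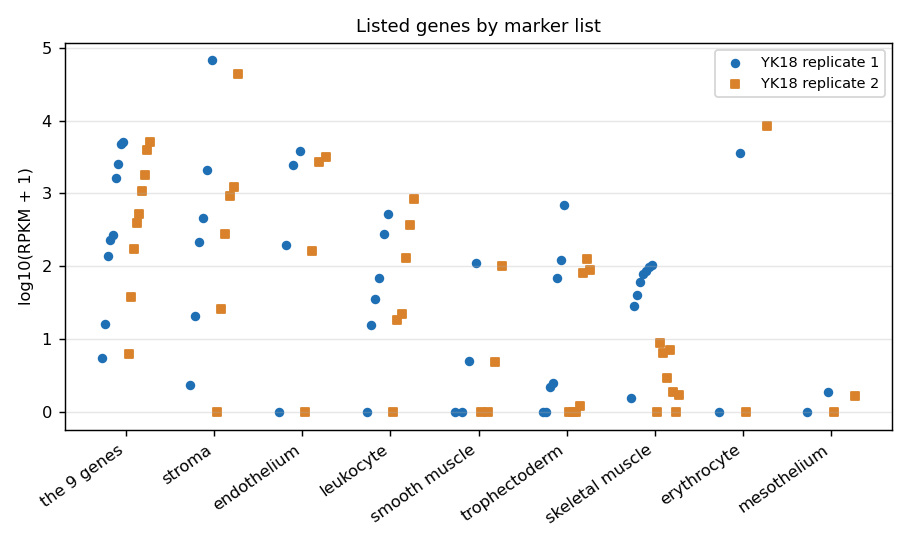
log10(RPKM + 1) of each listed gene, by marker list, with circles for YK18 replicate 1 and squares for YK18 replicate 2. The 9 junction and keratin genes lie in a like range in both pigs, while 7 of the 8 listed skeletal muscle genes are well above replicate 2 in replicate 1 and HBB is higher in replicate 2.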

How the data were processed

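Endometrium of 2 pigs was measured by RNA-seq. HTSeq counts were turned into RPKM values by the authors, who deposited 1 value per transcript and library. The aligner, genome build and filters are not given in the sources used here. Library totals and reads were recovered from the steps of the RPKM values, at the smallest length up to 20000 nt that gave whole reads in both libraries. All 25584 rows above 0 gave reads that were whole within 2e-06 reads plus 3e-08 of their number. This step and the binomial test were also run on simulated data with randomly drawn reads. The recovery step used random lengths rather than those of the table. No variation between pigs was simulated beyond set changes in some features, so the test's behaviour under such variation is not known. Gene symbols were assigned by accession without version from a RefSeq table of the Sscrofa11.1 assembly. This named 16072 of 38222 mRNA rows (42.0%), and no coordinates were used. Levels were compared as RPKM and differences on the log2(RPKM + 1) scale. Reads were compared with a two-sided exact binomial test, with Benjamini-Hochberg adjustment over all features tested. No count model was fitted.

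The genes of the set and all lists were chosen with earlier results of these data known. The rule for names in a list took the 4 genes of highest mean, and the 2 that differed most among those at 5 RPKM or more. Outside this rule CLDN1, CLDN5, CLDN12, MARVELD2, MUC4 and genes listed at 0 were picked once their values were known. Replicates are separate pigs by the study's methods. Alternatives were other pseudocounts, filters, scalings, matching by version, the highest row of a gene and each replicate left out. Python 3.11.15, pandas 2.3.3, numpy 2.4.6, scipy 1.17.1 and matplotlib 3.10.9 were used. A few genes that the rule would name are not reported here.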

Additional observations from a re-analysis of the deposited data

How the results depend on the processing

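No paired analysis was possible because there is only 1 group. MUC1 gave no value under any setting. The median level of the 9 genes, 394.97 RPKM and that of KRT19, was 92.4 when each library was rescaled to sum to 1000000, which lowers every level by construction. It was 166.2 RPKM over the genes matched with the accession version, where 4 genes in place of 9 were above 0 in both libraries. Recovered reads per 1000000, added once the data were known, gave 135.9. The median ran from 267.8 to 522 RPKM when either replicate was left out. In recovered reads in place of RPKM the mean share of CLDN3 among the 3 claudins went from 62.5% to 38.9%, that of CLDN4 from 32.4% to 58.4% and that of CLDN7 from 5.12% to 2.61%. The median percentile, 89.0, was 93.99 among all listed features and 79.7 among genes with 1 listed row, the latter chosen after seeing the data. The number of genes that passed the exact binomial test was 6, and 7 with median ratio scaling, which added EPCAM. The genes that passed in all 8 lists, regulators and repressors included, were 20, and 18 and 16 with the other scalings. The count at 2-fold stayed at 1 under all alternatives run. The reads of a single row are known only up to a multiple, which limits OCLN and KRT19 most, since their smallest reads are few. Over the whole table most reads are at a multiple of 1, as the sums given above show.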

Other observations

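Factors that act on epithelial junction genes were also listed. Of 11 epithelial regulators 7 had a row, 7 were tested and 2 were higher in replicate 2, against 10.9% of all features. GRHL2, a factor known to activate CDH1 and claudin genes, was at 618 RPKM in replicate 1 against 601 in replicate 2 and did not pass the exact binomial test. OVOL1 was at 40.4 and 87.8 RPKM and was higher in replicate 2 (adjusted p = 2.47e-18, exact binomial test), while EHF at 152.5 and 189.3 RPKM and KLF5 at 70.2 and 77.4 RPKM did not pass. Of 7 repressors of CDH1, 3 had a row. SNAI2 was at 50.4 and 82.8 RPKM and was higher in replicate 2 (adjusted p = 1.19e-05, exact binomial test), TWIST1 was at 18.7 and 18.3 RPKM and TWIST2 at 25.3 and 20.9 RPKM. CDH1 itself was the lower in replicate 2, and with 2 pigs no relation between these genes can be tested.

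Of 6 gap junction genes 4 had a row and 2 were tested. GJA1, which encodes connexin 43, was at 215.3 RPKM in replicate 1 against 170.5 in replicate 2 and was lower in replicate 2 (adjusted p = 0.00133, exact binomial test). GJC1 was at 3.71 RPKM in both, and GJB1 at 0.166 and 0.181 RPKM.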
